A study of Mus musculus with 2 samples.

Results

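Endothelial cells of the mouse liver were selected from 2 single-cell libraries by the genes they counted. A cell was taken when Egfl7, Ushbp1, Ptprb, Adgrl4, Clec14a and Robo4 together gave at least 3 raw counts and at least 5 per 10000 counts of the cell. This sum also had to exceed 2 times the summed counts of 4 macrophage genes (Siglec1, Tbxas1, Fyb, Lair1) and 2 times those of 4 stellate cell genes (Reln, Pdgfrb, Lrat, Dcn). The rule found 845 endothelial cells among 6079 kept cells, of 6116 deposited. They were 387 of 2571 cells (15.1%, 95% interval 13.7 to 16.5) in the library labelled AEG-1DMAC and 458 of 3508 cells (13.1%, 12.0 to 14.2) in the library labelled AEG-1fl/fl. No cell barcode was shared between the endothelial cells of both libraries, and 10 were shared among all deposited cells.

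Both libraries came from frozen livers, fixed and dissociated, of mice fed a high-fat, high-sugar diet (HF/HSD) from 7 weeks of age for 20 weeks and collected at 27 weeks. AEG-1fl/fl mice carry floxed alleles of Mtdh, the gene of the oncoprotein AEG-1. AEG-1DMAC littermates carry them with a Cre recombinase driven by the lysozyme 2 gene, which is active in myeloid cells. The sources used here do not give the sex of the mice in these libraries or whether a library pools several livers. Each genotype has 1 library, so no test between genotypes was possible, and every interval covers counting error only.

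Sinusoidal endothelial cells line the hepatic capillaries, have open pores and almost no basement membrane, and clear waste proteins from blood through scavenger receptors. Along the lobule they change in kind. Those near the central vein secrete Wnt ligands and R-spondin 3, which hold the pericentral programme of the neighbouring hepatocytes, and those near the portal tract carry arterial Notch and ephrin ligands. In steatohepatitis the sinusoids can lose their pores and gain features of ordinary capillaries.

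Mtdh (chromosome 15, 34082694 to 34145624, GRCm38) was counted 453 times in the AEG-1DMAC-labelled and 401 times in the AEG-1fl/fl-labelled endothelial cells. That is 73.9 CPM (95% interval 67.3 to 81.1) and 75.3 CPM (68.1 to 83.0), where CPM is the counts of a gene per 1000000 counts summed over the cells. The endothelial log2 ratio of Mtdh, here and below the AEG-1DMAC-labelled over the AEG-1fl/fl-labelled library, was -0.03 (-0.22 to 0.17). In macrophages, chosen by the mirrored rule, Mtdh had 135 CPM in the AEG-1DMAC-labelled library and 32.5 CPM in the AEG-1fl/fl-labelled one. This goes against the labels. Where the probes for Mtdh lie relative to its floxed part is not given in the sources used here, so this level may not check the deletion. For this reason each library is called by its label and every direction rests on the labels as deposited.

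Of 22 pan-endothelial genes, 20 were measured, Mmrn2 and Nos3 not being among the genes of the files, and all 20 were compared. Pecam1 had a count in 351 of the 387 and 416 of the 458 cells, 90.7% and 90.8%. Outside the genes of the rule, those that stood highest above hepatocytes, macrophages and stellate cells were Ccm2l (104 and 133 CPM in the AEG-1DMAC-labelled and AEG-1fl/fl-labelled library, 29.8 and 32.1 times the highest other cell group), Exoc3l, Slc26a10, Vwf, Galnt18, Sh3tc2, Sox17, Samd12, Gja5 and Fgd5. Vwf encodes von Willebrand factor, Sox17 an arterial transcription factor and Gja5 an arterial gap junction protein. Vwf had 71.0 and 84.5 CPM, 22.2 and 23.4 times the next cell group.

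The endothelial cells were not free of other RNA. Of all deposited counts, 79589511 and 90440089, the endothelial cells held 6126728 in the AEG-1DMAC-labelled and 5327331 in the AEG-1fl/fl-labelled library, with a median of 5748 (range 733 to 209675) and 4253 (830 to 233822) counts per cell. Counts on 39 hepatocyte genes were 16.2% and 12.7% of their summed counts, and the median cell had 10.8% and 4.67%. Alb, encoding serum albumin, was counted in every endothelial cell. When the cells were ranked by depth into 4 equal parts, the deepest held 74.8% and 75.9% of the summed counts, with a median of 18.3% and 13.7% hepatocyte counts. A macrophage gene of the rule was counted in 111 and 129 of the endothelial cells and a stellate cell gene in 190 and 176. Free RNA, doublets and cells that stick together cannot be told apart here, and no doublet caller was run.

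Each comparison was therefore also made in the cells whose share of hepatocyte counts was below the median of the hepatocytes of their library divided by 2, an alternative chosen after the data were seen. This left 206 AEG-1DMAC-labelled and 335 AEG-1fl/fl-labelled endothelial cells, with a median of 3932 and 3783 counts, and 5.21% and 3.40% hepatocyte counts. They are called the hepatocyte-low cells.

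**Figure D1:**
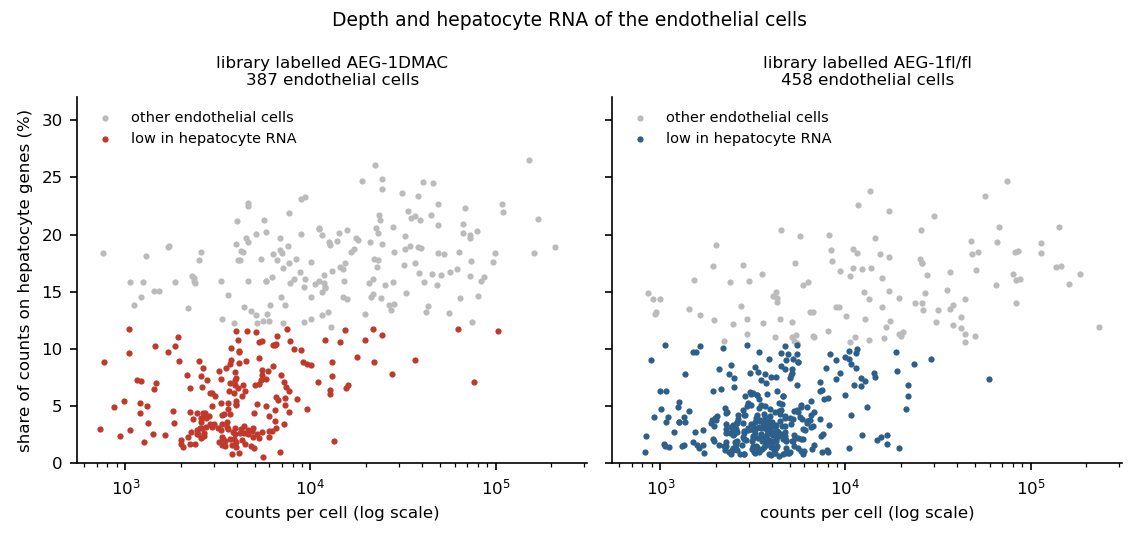
Counts per cell (x axis, log scale) against the share of counts on 39 hepatocyte genes (y axis, percent) for the 387 and 458 endothelial cells, 1 point per cell. Most of the cells with many counts had high hepatocyte shares in both libraries (left, AEG-1DMAC-labelled, right, AEG-1fl/fl-labelled), and the hepatocyte-low cells are coloured.

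At the limits of the rule, 15 and 10 endothelial cells had 3 counts of the marker genes and all else met, and 5 and 10 cells with 2 counts were left out. Between 5 and 6 per 10000 lay 10 and 6 endothelial cells, and between 4 and 5 per 10000 lay 12 and 6 cells that were left out. Cells past both marker limits but held back by their macrophage or stellate cell counts numbered 83 and 96. The 6 marker genes, which chose the cells, had log2 ratios from -0.67 to -0.31. Egfl7, a secreted vascular factor, had 682 and 1075 CPM.

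Genes with at least 50 summed counts numbered 10830 in the endothelial cells. Of these, 66 (0.609%) were at least 2-fold higher in the AEG-1DMAC-labelled library and 248 (2.29%) at least 2-fold lower. In the hepatocyte-low cells, 135 (1.5%) of 9020 genes were at least 2-fold higher and 115 (1.27%) lower. Of the 66 higher genes, 34 could be compared in the hepatocyte-low cells, all 34 with the same sign and 29 again past 2-fold. Of the 248 lower genes, 108 could be compared, 105 with the same sign and 48 past 2-fold. The median log2 ratio of all genes was -0.17, and -0.09 in the hepatocyte-low cells. The pan-endothelial genes lay lower still, with a median of -0.41 (19 of 20 below 0) and -0.21 in the hepatocyte-low cells (17 of 20), beside the larger share of hepatocyte counts in the AEG-1DMAC-labelled cells. A log2 ratio near -0.41 was thus that of an ordinary endothelial gene, and ratios relative to this median are given where they matter.

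Of the pericentral genes 4 of 9 were above 0 and of the periportal genes 2 of 8. Wnt2 (chromosome 6, 17988940 to 18030585), a Wnt ligand of the central vein side, had 84.5 CPM (95% interval 77.4 to 92.2) in the AEG-1DMAC-labelled and 58.0 CPM (51.7 to 64.8) in the AEG-1fl/fl-labelled endothelial cells. Its log2 ratio was 0.54 (0.34 to 0.75), 0.95 relative to the pan-endothelial median and 0.76 (0.50 to 1.02) in the hepatocyte-low cells. Wnt2 had a count in 156 of 387 and 115 of 458 endothelial cells, 40.3% and 25.1%. With each cell thinned to 2000 counts, which left out 39 and 53 shallower cells, it was in 19.8% and 12.9%, against 0.333% and 0.239% of hepatocytes thinned alike. Outside the endothelial group, 9.11% and 2.72% of the kept cells had a count of Wnt2, unthinned.

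Rspo3, encoding R-spondin 3 (chromosome 10, 29452416 to 29535867), had 85.9 and 65.9 CPM, a log2 ratio of 0.38 (0.18 to 0.58) and of 0.69 (0.44 to 0.93) in the hepatocyte-low cells. Stellate cells held as much Rspo3, 94.1 and 99.5 CPM, and the 4 stellate cell genes of the rule summed to 215 and 175 CPM in the endothelial cells. Their part in the Rspo3 ratio was not tested. Cdh13, encoding T-cadherin, was low in stellate cells (6.39 and 1.09 CPM) and had 39.8 and 27.2 CPM in endothelial cells, a log2 ratio of 0.55 (0.25 to 0.86) and of 0.98 (0.62 to 1.35) in the hepatocyte-low cells. Wnt9b, the other Wnt ligand of the central vein, had 84 and 87 counts, with a log2 ratio of -0.25 (-0.70 to 0.20) that became 0.59 (0.05 to 1.13) in the hepatocyte-low cells.

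The remaining pericentral genes were mixed. Thbd, the anticoagulant receptor thrombomodulin, had a log2 ratio of 0.04 (-0.10 to 0.18) and of 0.58 (0.40 to 0.76) in the hepatocyte-low cells. Kit, the stem cell factor receptor, lay at -0.51 and -0.11, the fatty acid carrier Fabp4 at -0.37 and 0.09, and the prostaglandin synthase Ptgs1 at -0.21 and 0.20 in all and in the hepatocyte-low cells. Lhx6, a transcription factor, went the other way, with 66 and 125 counts and log2 ratios of -1.12 (-1.58 to -0.68) and -0.65 (-1.18 to -0.14). The median of the 9 pericentral genes was -0.21 and turned positive in the hepatocyte-low cells, to 0.58, and relative to the pan-endothelial median, to 0.20. Of these 9 genes none was 2-fold higher and Lhx6 was 2-fold lower.

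Of the periportal genes 6 of 8 were below 0. Dll4, the arterial Notch ligand (chromosome 2, 119325784 to 119335962), had 123 CPM (95% interval 114 to 132) against 214 CPM (202 to 227), a log2 ratio of -0.80 (-0.94 to -0.67). Efnb2, encoding the arterial ligand ephrin-B2, had 77.5 and 122 CPM and a log2 ratio of -0.66 (-0.83 to -0.49). Ltbp4, which encodes a TGF-beta binding protein of the matrix, had 546 and 903 CPM and a log2 ratio of -0.73 (-0.79 to -0.66). In the hepatocyte-low cells these genes lay at -0.66, -0.63 and -0.62, and relative to the pan-endothelial median at -0.40, -0.25 and -0.32. The ephrin Efna1 (-0.70), the netrin Ntn4 (-0.58) and the scavenger receptor Msr1 (-0.36) were on the same side. Adam23, a membrane protein of the disintegrin family, was above 0 at 0.27 (0.18 to 0.35), and the oncostatin M receptor Osmr lay at 0.06 (-0.12 to 0.24). The median of the 8 periportal genes was -0.62, -0.56 in the hepatocyte-low cells and -0.22 relative to the pan-endothelial median, with none past 2-fold.

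Cells were then counted by zone. An endothelial cell was called pericentral-marked with at least 2 counts of Wnt2, Wnt9b and Rspo3 together and more of these than of Dll4, Efnb2 and Ltbp4, and periportal-marked in the reverse case. Pericentral-marked were 58 of 387 AEG-1DMAC-labelled cells (14.99%, 11.6 to 18.9) and 26 of 458 AEG-1fl/fl-labelled cells (5.68%, 3.74 to 8.21), and periportal-marked 291 (75.2%) and 396 (86.5%). Of all zone-marked cells, 16.6% (12.9 to 20.9) and 6.16% (4.06 to 8.90) were pericentral. The intervals of the libraries did not overlap. Thinned to 2000 counts the shares were 16.3% and 5.36%, in the hepatocyte-low cells 16.7% and 6.03%, and in cells without any macrophage or stellate cell count of the rule 16.0% and 6.76%, where the intervals (10.5 to 22.9 and 3.75 to 11.1) overlapped. Marked by Wnt2 and Wnt9b alone, without Rspo3, they were 10.6% (7.53 to 14.4) and 2.86% (1.48 to 4.94). Fewer cells recovered from a zone and a changed level of the marking genes cannot be told apart.

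**Figure D2:**
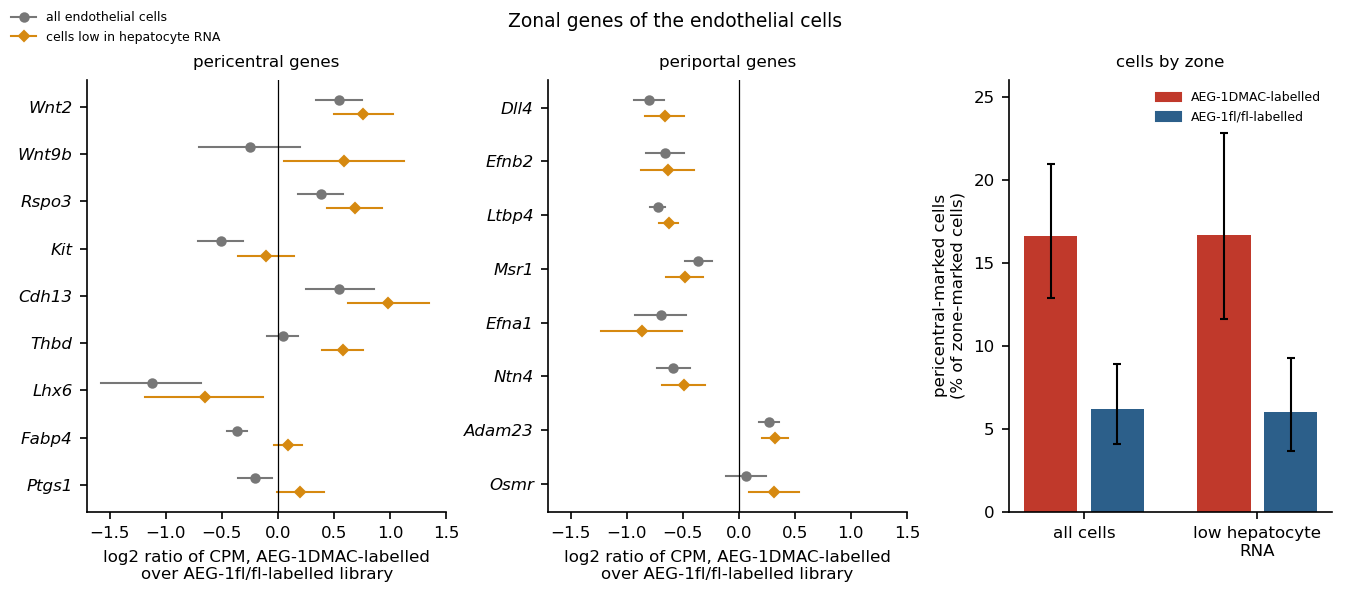
Left and middle, log2 ratio of CPM (x axis) of 9 pericentral and 8 periportal genes in all endothelial cells (grey circles) and the hepatocyte-low cells (orange diamonds), with 95% counting intervals. Right, pericentral-marked cells as a percent of zone-marked cells in each library with Clopper-Pearson 95% intervals, at 16.6% and 6.16% in all cells.

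Zonal genes that did not mark the cells were checked within each library. All 6 such pericentral genes were higher in pericentral-marked than in periportal-marked cells of both libraries, with medians of the log2 ratio of 1.94 and 1.74. Lhx6 had 71.0 and 1.36 CPM in the pericentral-marked and periportal-marked cells of the AEG-1DMAC-labelled library and 208 and 10.5 CPM in the other. Cdh13 had 145 and 22.5 CPM, and 125 and 20.5 CPM. All 5 such periportal genes were lower in pericentral-marked cells, with medians of -1.03 and -1.23. Within pericentral-marked cells alone Cdh13 had a log2 ratio between libraries of 0.21 (-0.31 to 0.76), and within periportal-marked cells 0.14 (-0.26 to 0.54), both nearer to 0 than over all cells. Lhx6 was farther from 0 within both zones (-1.55 and -2.96, the latter on 7 and 51 counts), as was Ptgs1 (-0.61 and -0.40). Kit lay at -0.07 and -0.77, Fabp4 at -0.05 and -0.54 and Thbd at 0.28 and -0.32 in pericentral-marked and periportal-marked cells. In vessel-marked cells, defined below, the ratio of Cdh13 between libraries was 1.57 (0.90 to 2.28), with 68 and 26 counts. Thbd had 425 and 107 CPM by zone in the AEG-1DMAC-labelled and 350 and 134 CPM in the AEG-1fl/fl-labelled library.

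**Figure D3:**
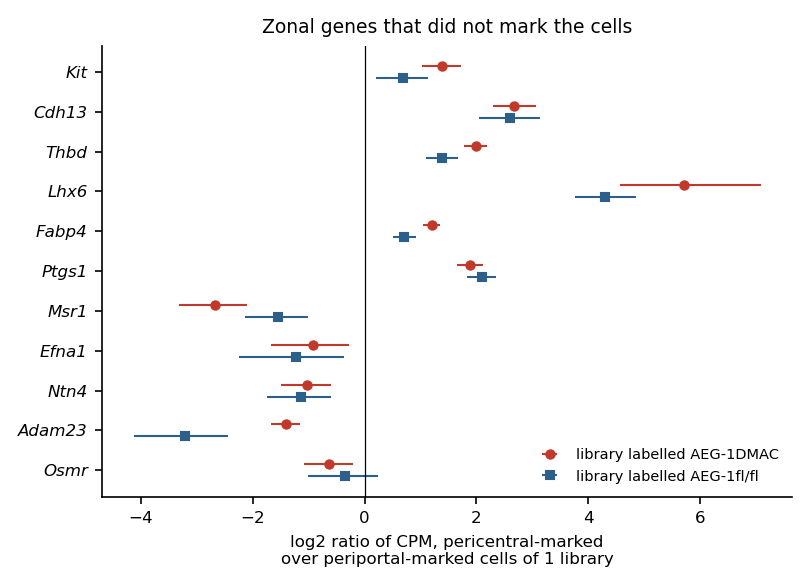
Log2 ratio of CPM between pericentral-marked and periportal-marked endothelial cells of 1 library (x axis) for 11 zonal genes that did not mark the cells, with 95% counting intervals. The 6 pericentral genes lie above 0 and the 5 periportal genes below 0 in both libraries, where the interval of Osmr includes 0 in the AEG-1fl/fl-labelled one.

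Genes were also ranked among 420 that had at least 100 summed counts and were at least 2-fold above the other cell groups in the library where they were higher. Of these, 317 were so in both libraries. A gene could pass through the library where it is high alone, so the ranks are a description and no count over the 420 is drawn from them. Twist1 had the largest ratio, and it passed only in the AEG-1DMAC-labelled library. It encodes a basic helix-loop-helix transcription factor known from mesenchymal cells and lies on chromosome 12 from 33957671 to 33959829. Twist1 had 242 counts in the AEG-1DMAC-labelled and 6 in the AEG-1fl/fl-labelled endothelial cells, 39.5 CPM (34.7 to 44.8) and 1.13 CPM (0.413 to 2.45). The level was 35.1-fold higher, a log2 ratio of 5.13 (3.99 to 6.59), and 38.2-fold higher in the hepatocyte-low cells. Its counts came from many cells, 96 of 387 (24.8%, 20.6 to 29.4) against 5 of 458 (1.09%, 0.355 to 2.53), and the highest cell held 24 of the 242.

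After thinning to 2000 counts, Twist1 was in 9.95% and 0.328% of the endothelial cells. In stellate cells of the same libraries it was in 0.567% and 0.122%, in hepatocytes in 0.112% and 0% and in macrophages in 0.00522% and 0.0527%. Within the AEG-1DMAC-labelled library Twist1 had 48.2 CPM in pericentral-marked cells (38 counts), 39.0 CPM in periportal-marked cells (201 counts) and 22.4 CPM in the vessel-marked cells defined below (3 counts). Among sinusoid-marked cells it had 232 and 6 counts. Twist1 was also counted in 4.62% and 0.393% of the kept cells outside the endothelial group. With 1 library each, a difference between genotypes and one between libraries cannot be told apart.

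Esm1 had the most counts of the 8 lowest of these 420 genes. It encodes endocan, a secreted proteoglycan of endothelial tip cells induced by VEGF, and lies on chromosome 13 from 113209659 to 113218098. Esm1 had 57.9 CPM (52.1 to 64.3) in the AEG-1DMAC-labelled and 205 CPM (193 to 218) in the AEG-1fl/fl-labelled endothelial cells, 3.54-fold lower, with a log2 ratio of -1.82 (-2 to -1.65) and of -1.86 (-2.11 to -1.61) in the hepatocyte-low cells. Relative to the pan-endothelial median it was -1.42. A count of Esm1 was found in 81 (20.9%) and 200 (43.7%) endothelial cells, and in 9.45% and 30.0% after thinning. Esm1 belonged to periportal-marked cells, with 331 and 1057 counts there and 2 and 1 in pericentral-marked cells. Within periportal-marked cells the log2 ratio was still -1.77 (-1.95 to -1.59).

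Of the other genes lower in the AEG-1DMAC-labelled endothelial cells, Kcne3, a potassium channel subunit, had 43 and 168 counts (-2.17), Megf6, an EGF-repeat protein, 82 and 276 (-1.95), and Zfp521, a zinc-finger transcription factor, 189 and 431 (-1.39). Mfng, the glycosyltransferase manic fringe that modifies Notch, had 98 and 209 counts (-1.29). Susd4 (-1.38), Spred3 (-1.42), a Ras pathway inhibitor, and Ccdc88c (-1.27) complete the 8 lowest. In the AEG-1DMAC-labelled library Mfng, Susd4, Spred3 and Ccdc88c were less than 2-fold above another cell group or below it, and they passed only in the AEG-1fl/fl-labelled one. All 8 kept log2 ratios from -1.86 to -1.12 in the hepatocyte-low cells. Megf6 differed by cell kind, since sinusoid-marked cells had 5.66 and 42.9 CPM (-2.92, -3.51 to -2.38) and vessel-marked cells 261 and 210 CPM (0.31, -0.42 to 1.05). Zfp521 was lower in pericentral-marked (-1.90), periportal-marked (-1.38) and vessel-marked cells (-1.40).

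On the higher side came Dusp4, a phosphatase that turns off MAP kinases, at 11.9 and 5.44 CPM, a log2 ratio of 1.13 (1.90 in the hepatocyte-low cells). In the AEG-1fl/fl-labelled library stellate cells had more Dusp4, 8.68 CPM, so it passed only in the other library. Lmcd1 (0.83), Rasd1 (0.80), a Ras-like protein induced by glucocorticoids, and Il13ra2 (0.72), the decoy receptor of IL-13, were also among the 8 highest, as were Cdh13 and Wnt2.

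**Figure D4:**
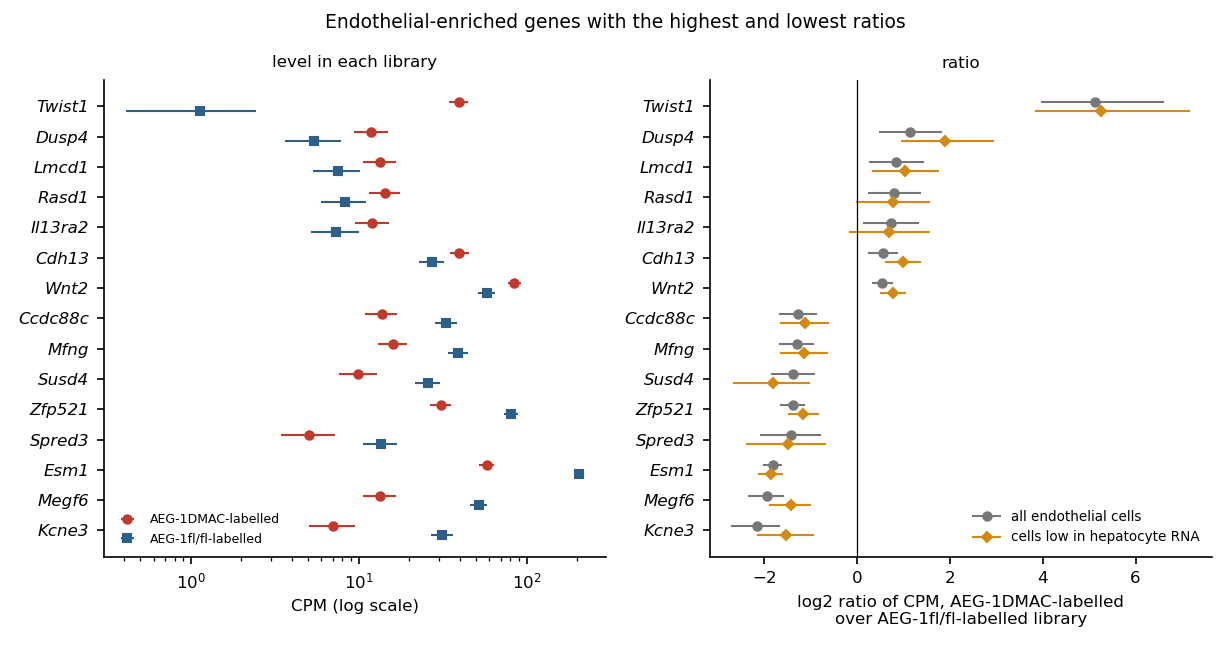
Genes among the 8 highest (7 shown) and the 8 lowest (all shown) of 420 genes enriched in endothelial cells of at least the library where they are higher. Left, CPM in each library on a log axis, right, log2 ratio in all endothelial cells and in the hepatocyte-low cells, all with 95% counting intervals; Twist1 stands at 39.5 against 1.13 CPM and Esm1 at 57.9 against 205 CPM.

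Genes of sprouting and vessel growth lay below 0. Of 18 tip cell and angiogenic genes, 16 were compared and 13 were below 0. At least 2-fold lower were 4 (Esm1, Angpt2, Unc5b and Apln), beside 2.29% of all genes compared. That background has a median of -0.17, above the -0.41 of the pan-endothelial genes, so it is not matched to endothelial genes. In the hepatocyte-low cells 2 of 13 were at least 2-fold lower, beside 1.27% of all genes. Angpt2, a ligand that loosens vessels through the Tie2 receptor, had 20.6 and 43.7 CPM and a log2 ratio of -1.09 (-1.41 to -0.77), and of -0.77 in the hepatocyte-low cells. Unc5b, a netrin receptor, had 71 and 144 counts (-1.22), with 0.14 in cells without macrophage or stellate cell counts. Aplnr, the apelin receptor, had 0 of 6126728 counts in the AEG-1DMAC-labelled cells, which allows up to 0.490 CPM. In the other library it had 29 counts (5.44 CPM) in 16 cells, 10 of them in 1 cell. The allowed level is 11.1-fold below this, where the counting error of the 29 counts is left out. Apln, the ligand of Aplnr, had 19 and 35 counts. Cxcr4, a chemokine receptor of tip cells, was on the other side with 49 and 21 counts, and -0.62 in cells without macrophage or stellate cell counts. The list median was -0.49, -0.37 in the hepatocyte-low cells and -0.09 relative to the pan-endothelial median.

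All 11 VEGF and angiopoietin ligands and receptors that could be compared were below 0, with a median of -0.51 and 1 of them, Angpt2, past 2-fold. Kdr, the main VEGF receptor, had 263 and 396 CPM (-0.59, -0.68 to -0.50), and Tek, the Tie2 receptor, 156 and 190 CPM (-0.29). Relative to the pan-endothelial median this list lay at -0.10. Of 14 genes of glycolysis and hypoxia, 12 were compared and all were below 0, with a median of -0.54, and 8 of 11 were in the hepatocyte-low cells. This list lay at -0.14 relative to the pan-endothelial median. Its summed levels were 944 and 1173 CPM in endothelial cells and 940 and 1132 CPM in hepatocytes. In macrophages they were 1098 and 1262 CPM, and in stellate cells 981 and 1135 CPM. Ankrd37, a target of hypoxia-inducible factor, had 33 and 122 counts (-2.09, and -1.48 in the hepatocyte-low cells), and the oxygen sensor Egln3 had 134 and 222 (-0.93). Outside the endothelial group, Ankrd37 had a count in 6.14% and 13.1% of the kept cells, unthinned.

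Sinusoidal genes did not move as 1 group. Stab2, the scavenger receptor stabilin-2, had 550 and 916 CPM, a log2 ratio of -0.74 (-0.80 to -0.67), and Stab1 (-0.64), the hyaluronan receptor Lyve1 (-0.72) and the chemokine scavenger Gpr182 (-0.62) were alike. Clec4g, a lectin of sinusoidal cells, had 704 and 607 CPM (0.21, 0.15 to 0.28), the nuclease Dnase1l3 913 and 859 CPM (0.09, 0.03 to 0.14), and the recycling protein Ehd3 423 and 361 CPM (0.23, 0.15 to 0.32). Fcna, encoding ficolin A, had 517 and 255 counts and the highest ratio of the list (0.82), and the semaphorin receptor Plxnc1 lay at 0.43. In the hepatocyte-low cells Stab2 was at -0.55 and Clec4g at 0.28, so both signs stayed. Outside the endothelial group, Clec4g had a count in 34.8% and 18.8% of the kept cells, Stab2 in 41.8% and 34.2% and Stab1 in 28.3% and 30.5%, unthinned, where all kept cells had a median of 12746 and 7682 counts. Over 21 compared genes the median was -0.23, with 15 below 0 and none past 2-fold, and it turned positive relative to the pan-endothelial median (0.17) and after subtraction of the hepatocyte profile (0.03).

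Sinusoid-marked cells, by Stab2, Clec4g, Gpr182 and Oit3 against Vwf, Cd34, Gja4 and Fbln2, were 82.9% and 82.8% of the endothelial cells, and vessel-marked cells 5.68% (22 cells) and 5.24% (24 cells). After thinning sinusoid-marked cells were 66.1% (60.9 to 71.1) and 73.8% (69.3 to 78.0). The intervals of both libraries overlapped for both kinds of cell, thinned or not. Genes that did not mark the cells followed the split. Of 13 such large vessel genes, 11 and 12 were higher in vessel-marked cells (medians 3.68 and 2.76), among them Gja5 with 232 and 223 CPM against 1.42 and 1.51 CPM, and of 17 such sinusoidal genes 13 and 15 were lower. Clec1b, a sinusoidal lectin, had 14.9 and 19.7 CPM in vessel-marked and 297 and 344 CPM in sinusoid-marked cells.

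Large vessel and capillary genes, which can rise when sinusoids turn into capillaries, had a median of -0.33 over 16 compared genes. Relative to the pan-endothelial median the list lay at 0.07, with 9 of the 16 genes above that median. In the hepatocyte-low cells 8 of 15 were below 0, with a median of -0.18. Cd34, a sialomucin of capillaries, had 101 and 190 counts (-1.11, -1.48 to -0.76), and Plvap, the diaphragm protein of pores, 137 and 217 CPM (-0.66), beside 361 and 538 CPM in the cells of the stellate rule. Mgp, an inhibitor of BMP signals and of calcification, had 71 and 20 counts (1.63), with 51 and 11 of them in vessel-marked cells, and it had a count in only 14 and 10 endothelial cells. Of 24 measured basement membrane and matrix genes, 21 were compared, 15 were below 0, and the median was -0.44, close to the pan-endothelial one. Col4a1 had 428 and 593 CPM (-0.47). Col18a1, whose fragment is endostatin, was above 0 (0.34). Col5a2 (-1.38) was the only gene of the list 2-fold lower, where Col1a1, a stellate cell collagen, also had 255 and 558 counts in these cells. A count of Col1a1 was found in 22.2% and 24.9% of the endothelial cells. In the AEG-1fl/fl-labelled library 226 of its 558 counts lay in 2 cells.

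Among Notch genes, Dtx3, an E3 ligase of the deltex family, had 113 and 318 counts in 78 and 192 endothelial cells (-1.69, -2.02 to -1.38, and -1.43 in the hepatocyte-low cells), and Mfng and Dll4 were lower as given above. Stellate cells held more Dtx3, 84.8 and 114 CPM, than the endothelial cells, 18.4 and 59.7 CPM. The receptor Notch1 lay at -0.19 and the target Nrarp at 0.07, and the list median was -0.29. Of 16 compared BMP and ALK1 genes, the iron-regulating ligands Bmp2 (0.05, -0.06 to 0.17) and Bmp6 (-0.09, -0.27 to 0.10) had intervals that include 0, while the inhibitory Smads Smad6 (-0.84) and Smad7 (-0.81, and -0.84 in the hepatocyte-low cells) were lower.

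Of 19 compared genes of secreted angiocrine signals, 12 were below 0, with a median of -0.25. The list lay at 0.15 relative to the pan-endothelial median and at 0.05 in the hepatocyte-low cells. Among the genes above 0, Hgf, a growth factor for hepatocytes, had 574 and 359 counts (0.48, 0.28 to 0.67, and 0.72 in the hepatocyte-low cells). Stellate cells also make Hgf and Cxcl12 (0.36). The 4 stellate cell genes of the rule had a median log2 ratio of 0.24 in the endothelial cells, and of -0.10 as a mean over cells. The part of stellate cell RNA in the ratios of Hgf and Cxcl12 was not tested. The flow-induced factor Klf2 had 189 and 170 CPM (0.16, 0.03 to 0.28, and 0.43 in the hepatocyte-low cells). Of 11 compared genes of shear and vascular tone, 6 were below 0, with a median of -0.21, and of 0.20 in the hepatocyte-low cells.

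Leukocyte adhesion and inflammation genes had a median of -0.36, with 17 of 20 below 0. Relative to the pan-endothelial median the list lay at 0.05, with 11 of the 20 genes above that median. In the hepatocyte-low cells 10 of 18 were below 0, with a median of -0.24. Icam1 (-0.69), Icam2 (-0.72) and Vcam1 (-0.70), the adhesion molecules that hold leukocytes, were at 80.5 and 130, 62.5 and 103, and 99.9 and 162 CPM. In the hepatocyte-low cells they lay at -0.60, -0.60 and -0.43. Sele, encoding E-selectin, was 2-fold higher (55 and 23 counts), but 34 of the 55 counts came from 2 cells. Interferon response genes had a median of -0.10, MHC genes -0.27, both turning positive in the hepatocyte-low cells (0.09 and 0.09), and proliferation genes -0.02, none of them with a gene past 2-fold. Among lipid handling genes (median -0.33, and 0.08 relative to the pan-endothelial median) Fabp5, a fatty acid carrier, had 61.4 and 119 CPM (-0.95). Cd36, the fatty acid translocase, had 436 and 602 CPM (-0.47). Outside the endothelial group, Fabp5 had a count in 21.9% and 32.1% of the kept cells, unthinned. The endothelial transcription factors had a median of -0.38, with Ets2 at -0.76, Sox17 at -0.72 and Maf, a regulator of sinusoidal identity, at -0.03.

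**Figure D5:**
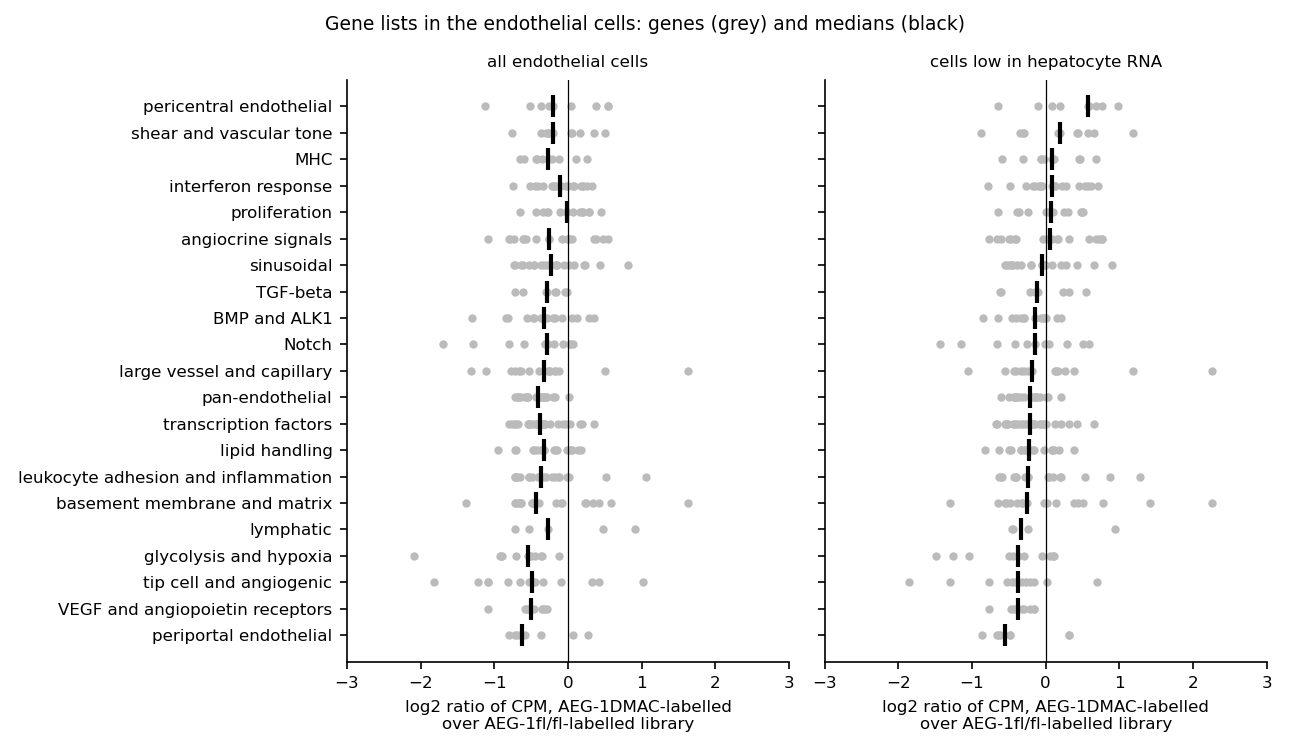
Log2 ratio of CPM (x axis) of the genes of 21 lists with at least 50 summed counts (grey points, 1 gene not shown) and their medians (black bars), in all endothelial cells (left) and the hepatocyte-low cells (right). From left to right panel the pericentral median moves from -0.21 to 0.58 and the periportal one from -0.62 to -0.56.

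Markers of other cell types in the endothelial cells differed between the libraries. Of 39 hepatocyte genes compared, 32 were above 0 (median 0.33, and 0.73 in the hepatocyte-low cells), with summed levels of 162339 and 126934 CPM. Of 22 macrophage genes 15 were below 0 and 7 above 0 (median -0.27, summed 3345 and 3926 CPM). The lipid-associated macrophage genes Trem2 (12 and 79 counts) and Gpnmb (288 and 680) were among the lowest. Marco (291 and 76 counts) was the highest. Of 19 stellate cell genes compared 13 were above 0 (median 0.31, and -0.06 as a mean over cells). T, NK and B cell, neutrophil and cholangiocyte markers summed to 58.6 and 114, 29.5 and 53.5, and 127 and 387 CPM. Their part in the endothelial ratios was not tested, other than by the hepatocyte-low cells, the cells without macrophage or stellate cell counts of the rule, and subtraction of the hepatocyte profile.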

How the data were processed

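Raw counts per gene and cell of 19059 genes were deposited by the authors without normalization, made per the labels with Cell Ranger 7.1.0 (version from the submitters' processing notes) and mm10 from the probe-based assay of fixed RNA. The study's cell filter was applied (100 genes or more, no more than 10% of counts mitochondrial), and no doublet caller was run. No column was left unmapped.

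Counts were summed over the endothelial cells of each library in Python 3.11.15 (pandas 2.3.3, SciPy 1.17.1, NumPy 2.4.6) and plotted by matplotlib 3.10.9. CPM has exact Poisson intervals, and shares and log2 ratios have Clopper-Pearson intervals, all at 95%. No pseudocount was used. Genes with at least 50 summed counts were compared. Zero counts were taken to allow 3 counts per library. Macrophages and stellate cells were chosen by the mirrored rule. Hepatocytes were cells with at least the median count of their library, a hepatocyte-gene share in the upper part of their library (above 2 of 3 cells) and fewer than 1 count per 10000 on each set of rule genes. The scripts were tested on simulated data. Positions are from GENCODE vM21 for GRCm38, the same build as mm10. Gene levels were compared between libraries and cell groups, never between genes.

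The members and the gene lists were chosen with earlier results of these data known. Named genes were the rule's genes and Mtdh, of each list the 4 of highest level and the 2 highest and 2 lowest ratios, the 8 highest and 8 lowest ratios among endothelial-enriched genes with at least 100 summed counts, the 10 with the largest ratio to other cell groups, and genes at 0. Outside this rule, the other zonal genes, Stab1, Gpr182, Ehd3, Clec1b, Bmp6, Smad7, Icam1, Vcam1, Mmrn1, Ccl21a, Marco, Spp1, Oit3 and Fbln2, Aplnr, Apln, Alb, Col1a1, Trem2 and Gpnmb were chosen after their values were seen. Y-linked genes had counts in both libraries, and Xist is not among the genes of the files. Results for a few genes that the rule for named genes covers are not reported here.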

Additional observations from a re-analysis of the deposited data

How the results depend on the processing

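No paired analysis was possible because each genotype has 1 library. Values for the AEG-1DMAC-labelled library come first. The share of endothelial cells was 12.4% and 11.8% under a stricter rule (at least 5 counts and 10 per 10000), 19.4% and 14.3% without the minimum per 10000, 8.01% and 9.55% when only hepatocyte-low cells were counted, and 17.3% and 15.2% of cells outside the hepatocyte group. Genes at least 2-fold higher, 66 as reported, numbered 186 without the tenth of cells with the most counts, 135 in the hepatocyte-low cells, 240 relative to the pan-endothelial median, 356 with the hepatocyte profile subtracted, 212 as a mean over cells and 288 without the minimum of 50 counts. Genes at least 2-fold lower, 248 as reported, numbered 714, 115, 80, 479, 474 and 925 in the same order, 427 without the minimum per 10000 and 96 in cells without macrophage or stellate cell counts. The genes compared, 10830 as reported, were 9809, 9020, 10830, 10495, 10830 and 13331 in the same order. They were 11328 without the minimum per 10000 and 7055 in cells without macrophage or stellate cell counts. More genes were thus lower than higher as reported, and more were higher than lower relative to the pan-endothelial median and in the hepatocyte-low cells.

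In cells without macrophage or stellate cell counts the medians were -0.25 (pan-endothelial), -0.078 (sinusoidal), 0.022 (pericentral) and -0.40 (periportal), and Cxcr4 turned to -0.62 and Unc5b to 0.14. Without the tenth of cells with the most counts they were -0.81 (pan-endothelial), -0.49 (sinusoidal), -1.05 (periportal), -0.92 (tip cell) and -0.84 (basement membrane). Without the minimum per 10000 the pan-endothelial and sinusoidal medians were -0.72 and -0.44. In the hepatocyte-low cells they were -0.21 and -0.054, and the pericentral one 0.58. With the hepatocyte profile subtracted they were -0.13, 0.029, 0.057 (pericentral), -0.35 (periportal) and -0.23 (basement membrane). Relative to the pan-endothelial median the sinusoidal, pericentral, periportal, tip cell and basement membrane medians were 0.17, 0.20, -0.22, -0.087 and -0.031. As a mean over cells the pericentral median was 0.020. The periportal median stayed below 0 in each of these settings, and the pericentral one changed sign in 5 of them. Sinusoid-marked cells were 66.1% and 73.8% after thinning, vessel-marked cells of the AEG-1DMAC-labelled library 8.74% in the hepatocyte-low cells, and pericentral-marked cells 10.6% and 2.86% of zone-marked cells when marked by Wnt2 and Wnt9b alone. The causes of these shifts were not tested. Of 161 named genes, 41 changed sign relative to the pan-endothelial median, 23 in the hepatocyte-low cells and 7 to 25 in the other settings. Depth limits genes under 50 summed counts, which were not compared.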

Other observations

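Most counts of the lymphatic genes Mmrn1 and Ccl21a in the AEG-1DMAC-labelled endothelial cells came from 1 cell. Mmrn1, encoding multimerin-1, had 41 and 2 counts in the AEG-1DMAC-labelled and AEG-1fl/fl-labelled endothelial cells, and Ccl21a, a chemokine of lymphatic endothelium, had 36 and 5. A single AEG-1DMAC-labelled cell held 39 of the 41 and 35 of the 36, with 1 count of Prox1, a lymphatic transcription factor that also had 424 and 445 counts over 118 and 100 endothelial cells. No AEG-1fl/fl-labelled endothelial cell held both genes.

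Marco, a scavenger receptor of macrophages, had 291 and 76 counts in 84 and 26 endothelial cells, with a log2 ratio of 1.74, and a count in 21.4% and 8.23% of the other kept cells. Spp1, encoding osteopontin, had 504 and 1692 counts in the endothelial cells and a log2 ratio of -1.95, which became 0.13 in the hepatocyte-low cells. In the AEG-1fl/fl-labelled library 642 of its 1692 counts lay in 2 cells.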
